A study of Mus musculus with 14 samples.

Results

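The genes described here encode the subunits, activators and assembly chaperones of the mouse proteasome. They were chosen by symbol alone, as every gene in the count table named Psm, a letter from a to g and a number, and 49 of the 56923 genes in the table matched. They fall into 7 alpha-ring, 4 non-catalytic beta-ring and 3 catalytic beta-ring genes of the 20S core, 5 tissue-specific core genes, 6 ATPases and 11 other subunits of the 19S regulatory particle, 3 chaperones of 19S assembly, 5 activators and regulators, 4 chaperones of core assembly, and Psme2b, an intronless copy of Psme2. All 49 passed edgeR's filter on low counts over the whole series.

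RNA-seq was made from ICR mouse embryos at the 2-cell stage in 14 libraries of 5 embryos each, 2 libraries for each of 7 conditions. Embryos called G&N were cultured from 24 h after hCG with 5 µM Gne140, an inhibitor of the lactate dehydrogenases LDHA and LDHB, and 50 µM NMN, a precursor of NAD+, in medium with 10 mM lactate, and G&N-L embryos had the same additions in medium without lactate. Both were collected as early 2-cell embryos at 30 h and as late 2-cell embryos at 54 h. A further late group, G&N-L + Lac-CoA, came from zygotes injected with 1 mM lactyl-CoA, the donor of lactyl groups in histone lactylation, and was then cultured as G&N-L. The last pair of late groups is named H3K18R and WT; by the study's methods, zygotes received mRNAs of histones H3.1, H3.2 and H3.3, with lysine 18 changed to arginine in H3K18R and in wild-type form in WT, while the label of the WT group itself names no injection. The count columns of the mutant carry the name K18A, the treatment label of early G&N leaves out NMN, and the label of the injected group says CoA, so groups follow the sample titles. Gne140 and NMN were in the medium of every G&N and G&N-L group, and no lactate-withdrawn group lacked them.

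The proteasome is the protease that breaks down proteins tagged with ubiquitin. Its barrel-shaped 20S core holds the proteolytic sites inside beta rings capped by alpha rings, and the 19S particle on its ends binds ubiquitin chains, removes them, and unfolds and feeds in the substrate with a ring of ATPases. In the oocyte and the early embryo, protein degradation clears maternal proteins while control of development passes from maternal RNA to newly transcribed RNA, and in the mouse the main wave of that transcription, major zygotic genome activation, takes place in the late 2-cell embryo.

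The 3 catalytic genes carry the proteolytic sites and are followed through every comparison, so the 100 bases before each of their start sites are shown, 5′ to 3′ on the gene's strand, from the GRCm39 (mm39) genome sequence. Capitals mark TGACNNNGC, the core of the element bound by the transcription factors Nfe2l1 and Nfe2l2, which are known to activate proteasome genes. Psmb5 lies at chr14:54855482-54855581 on the minus strand, Psmb6 at chr11:70416083-70416182 on the plus strand and Psmb7 at chr2:38534100-38534199 on the minus strand.
Psmb5: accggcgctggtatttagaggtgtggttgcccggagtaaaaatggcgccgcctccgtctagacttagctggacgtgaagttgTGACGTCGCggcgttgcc
Psmb6: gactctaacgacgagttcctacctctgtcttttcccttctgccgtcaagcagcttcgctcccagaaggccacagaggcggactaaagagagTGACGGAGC
Psmb7: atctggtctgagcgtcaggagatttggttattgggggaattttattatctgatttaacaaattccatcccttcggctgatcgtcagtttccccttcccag
Psmb5 and Psmb6 hold the motif close to the start site and Psmb7 does not hold it in this stretch. In the window from 250 bases before to 50 bases after the start site, on both strands, TGACNNNGC was found in 8 of the 49 genes (Psmb2, Psmb5, Psmb6, Psmc6, Psmd7, Psmd9, Psmd12 and Psmg2), or 16.3%, against 12.5% of the 21757 protein-coding promoters. CCAAT, the box bound by NF-Y, was found in 36.7% of the proteasome genes and in 39.9% of all promoters.

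Library totals ran from 20350427 to 61275465 counts. Replicate libraries of a condition were distinct: the chi-square of their gene counts, divided by its degrees of freedom, was 51.9 to 216, so none was counted as a duplicate. Nothing in the labels says that replicates came from separate matings or cultures, so p-values measure the spread between these libraries. Levels are given as CPM, read counts divided by the TMM-scaled size of the library, and are shares of each library's RNA: less RNA of a gene per embryo and more RNA of other genes cannot be told apart. A limit of 3 counts stands at 0.0589 to 0.144 CPM across libraries and covers counting error only. A list of 12 cumulus cell markers summed to 5.39 to 33.4 CPM. Amh and Inhba were at 0 in all 14 libraries. Cyp19a1 was at 13.3 to 22.9 CPM in early libraries, and Tnfaip6 was at 0 in early and 0.565 to 19.2 CPM in late libraries. A list of 12 oocyte and maternal transcripts summed to 20730 to 27750 CPM in early libraries and 3653 to 19300 CPM in late ones, and 11 genes known to be activated in late 2-cell embryos summed to 272.2 to 407.6 and 2322 to 4011 CPM. The sums of those 2 lists follow the stage labels, but not each member does. Btg4 alone was at 13000 to 17200 CPM in early libraries. From early to late, 11 of 12 maternal genes fell in G&N and 8 of 12 in G&N-L. Zp3 had means of 36.9 and 48.1 CPM in early groups and 104 and 136 CPM in late H3K18R and WT. All 11 activated genes rose in G&N and in G&N-L, but Dppa2 was at 124 and 101 CPM in early G&N-L and 110 and 135 CPM in late G&N-L.

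Proteasome RNA was abundant at the early 2-cell stage and its level in late embryos differed by condition. Summed over the 49 genes it was 5890 ± 382 CPM (SD, n = 2) in early G&N-L and 6061 ± 1250 CPM in early G&N. In late embryos it was lowest in G&N-L, at 2691 ± 166 CPM, and reached 3301 ± 89.1 CPM with Lac-CoA, 3467 ± 743 CPM in G&N, 4355 ± 570 CPM in H3K18R and 5561 ± 472 CPM in WT. The sum over the 14 constitutive core genes was 2917 to 3702 CPM in the 4 early libraries. In late libraries it was 863.6 and 1034 CPM without lactate (G&N-L), 985.5 and 1656 CPM with it (G&N), 1151 and 1219 CPM with Lac-CoA, 2332 and 1944 CPM in H3K18R, and 2780 and 3279 CPM in WT. The G&N and G&N-L libraries overlapped in the core sum, and the Lac-CoA libraries lay between the G&N libraries. The 17 genes of the 19S particle summed to 1242 to 2018 CPM in early libraries, 720 and 672.4 CPM in late G&N-L and 972.2 and 978.4 CPM with Lac-CoA. Late G&N libraries held 859.7 and 1255 CPM, both above both G&N-L libraries, and WT libraries held 1687 and 1760 CPM. The activators and regulators summed to 401.3 to 549.4 CPM in early libraries, with means of 787.9 CPM in late G&N-L, 866.5 CPM with Lac-CoA and 456.4 CPM in WT. Psme4 made up most of that sum in late groups, at means of 323 to 694 CPM. In early groups it was at 209 and 211 CPM, with Psmf1 close to it at 207 and 188 CPM. Psmf1 was lower in late groups, at 16.7 to 162 CPM. With 2 libraries against 2, an exact two-sided permutation test of such a sum cannot go below p = 0.333, so sums are given without a test.

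**Figure D1:**
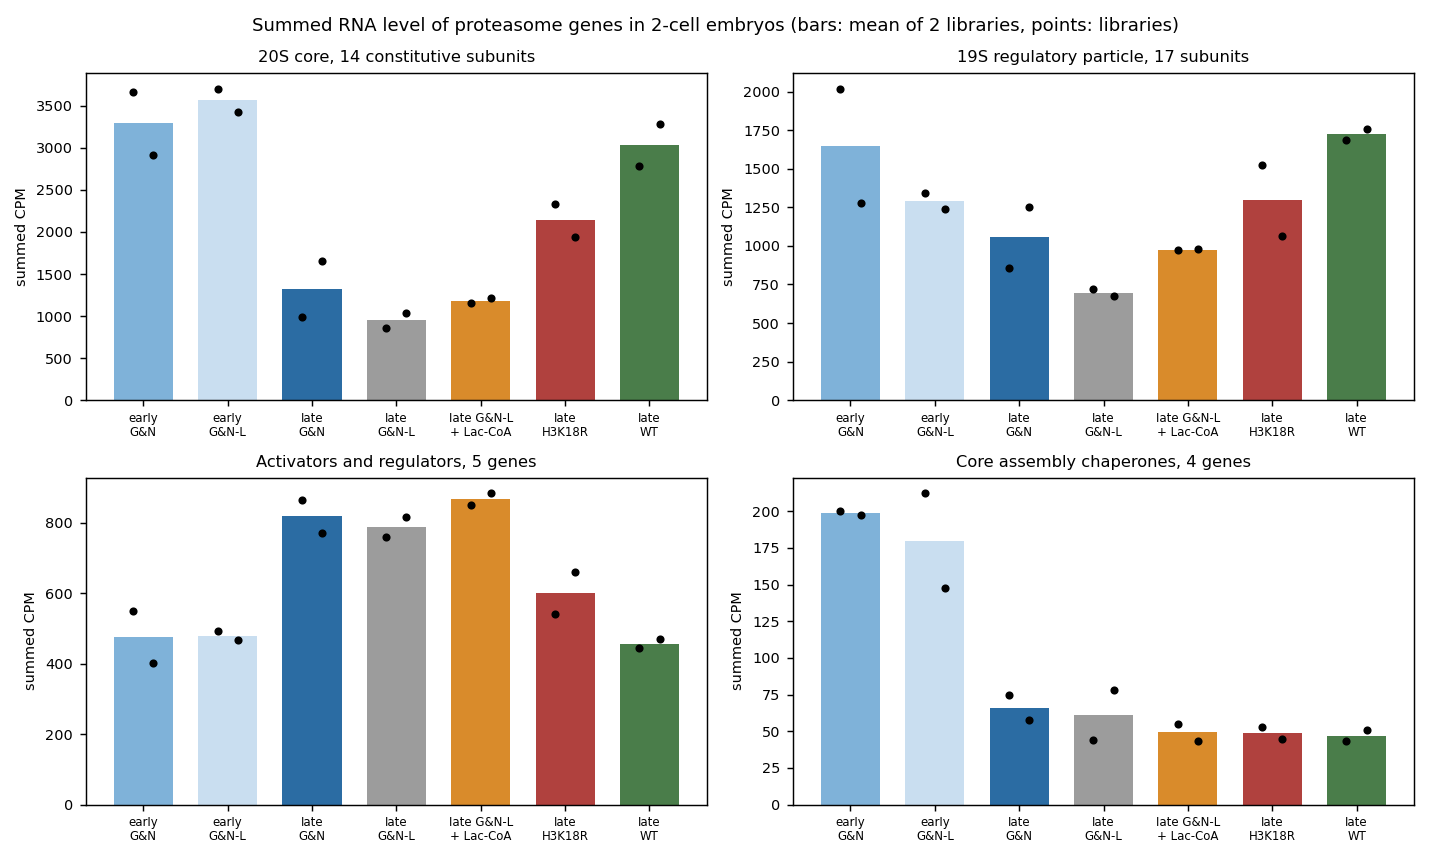
Summed CPM of the proteasome genes in 4 groups (20S core, 19S regulatory particle, activators and regulators, core assembly chaperones) by condition; bars are the mean of 2 libraries and points the libraries. The late G&N-L bar is the lowest for the core, at 948.7 CPM, and for the 19S particle, at 696.2 CPM, while the activators are highest with Lac-CoA, at 866.5 CPM.

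A 20S core holds each of its subunits in equal number, but the RNA levels of the 14 core genes were far apart in early embryos. Levels between genes are compared as CPM per kilobase of coding sequence, since untranslated sequence used in these embryos is not known. Where reads from untranslated sequence were counted, genes with much of it stand higher on this scale. The annotated transcripts hold 3502 bases with 702 coding for Psma2, 4019 with 603 for Psmb2 and 944 with 744 for Psma7. The order of genes, the spans and the shares below therefore depend on this choice of length. In early libraries the highest core gene stood 390 to 2270 times above the lowest, which was Psmb5 in all 4, and the top 2 genes made up 57.4% to 64.2% of the core total per kilobase. Psma2 and Psmb2 were those genes on average, at 1600 and 1700 CPM per kilobase in early G&N-L and 1350 and 1520 in early G&N. In WT late embryos the span was 15.9 and 13.1 times, and the top 2 genes made up 35% and 34.2%. The span was 201 and 462 times in late G&N-L, 30.5 and 31.3 times in G&N, 54.7 and 26.9 times with Lac-CoA, and 10.9 and 20.3 times in H3K18R. The spans in early, G&N, G&N-L and Lac-CoA libraries, and in the second H3K18R library, rested on Psmb5, which shares sequence with other genes. Without Psmb5 the spans were 94.9 to 227 times in early libraries, 26.9 and 82.7 times in late G&N-L, and 13.3 and 12 times in G&N. They were 11.1 and 21.2 times with Lac-CoA, 10.9 and 13.5 times in H3K18R, and unchanged in WT. Psmb5 was the lowest core gene in every early, G&N, G&N-L and Lac-CoA library, whereas Psmb3 was lowest in WT. By the mean per kilobase over early libraries and over late ones alike, the highest gene was Psma2 among alpha-ring genes, Psmb2 among non-catalytic beta-ring genes, Psmb6 among catalytic genes, Psmf1 among activators and regulators and Psmg1 among core chaperones, and Psmb4, Psmb5, Psmd13 and Psme1 were the lowest of their roles. Other orders differed by stage. Psmc5 was the highest ATPase gene early, at 178, and Psmc2 late, at 77.4. Among the other 19S subunits Psmd4 was highest early, at 137, and Psmd14 late, at 151. Psmd9 was the highest 19S chaperone gene early, at 275, and Psmd5, lowest early, was highest late, at 109.

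**Figure D2:**
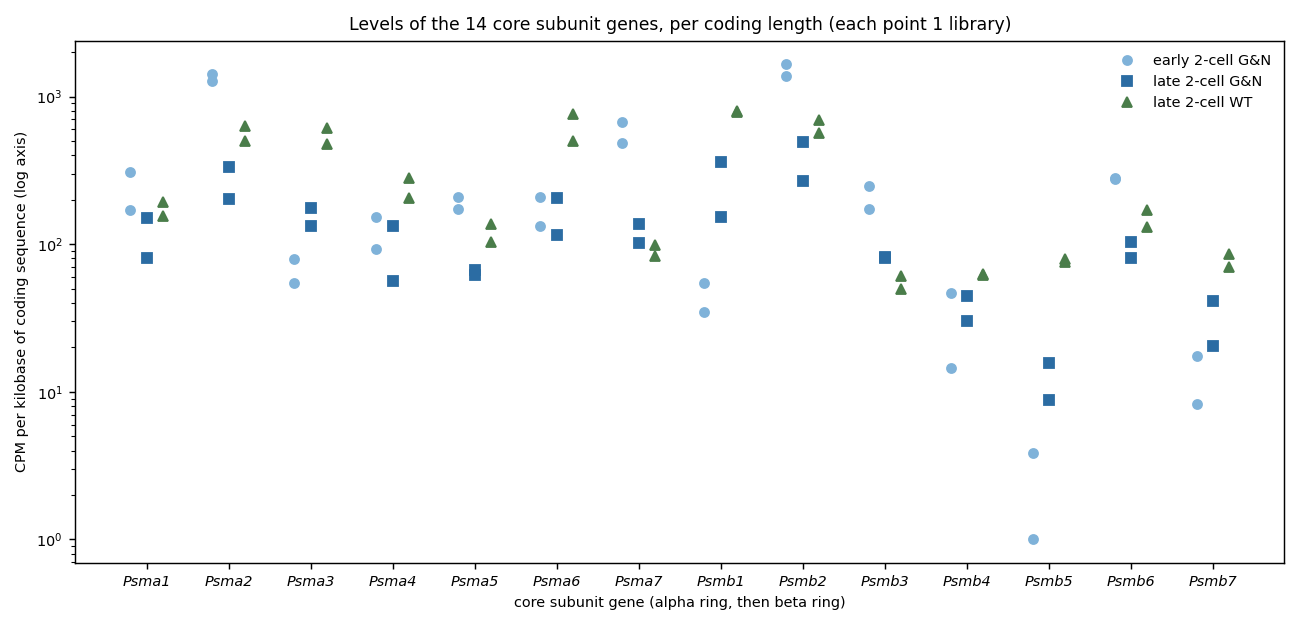
CPM per kilobase of coding sequence (log axis) of the 14 core genes in the libraries of early G&N, late G&N and late WT; each point is a library. Early libraries spread from Psmb5 near the bottom to Psma2 and Psmb2 at 1280 to 1650, and WT libraries spread 13.1 and 15.9 times from lowest to highest.

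Some reads of these genes cannot be placed with certainty. At least 10% of the 50-base words of 11 transcripts also occur in other genes, most for Psme2b (69.4%), Psmb3 (60.4%), Psme2 (59.2%), Psmb5 (48.7%) and Psma5 (47.9%), while 25 genes share none. Psme2 and Psme2b share words with each other, and those of Psmb3 lie mostly in the predicted gene Gm6467. Psmb5 shares 27.4% of its words with the predicted gene Gm3375, 15.5% with Osgep and 12.7% with Rad1. It shares 11.3% with Dcun1d1, which had 11180 to 71339 counts across libraries. Values of Psme2b, Psmb3, Psme2, Psmb5 and Psma5 are therefore uncertain. Exons of 22 of the 49 genes also overlap a gene on the opposite strand, among them Psma6 (Gm56554 and Gm60863), Psmb4 (Pogz), Psmb7 (Nek6), Psmb9 (Tap1), Psmc3 (Slc39a13), Psmc5 (Smarcd2), Psmd10 (Atg4a), Psme1 (Emc9), Psme2 (Rnf31), Psme4 (Gm57374) and Psmf1 (Tmem74b), and whether the counting used strand is not given in the sources used here.

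The comparison of late G&N-L with late G&N asks what changes when lactate is withheld. The catalytic genes were lower without lactate in every library pair, by the widest margin for Psmb5, and many 19S genes lay the same way, but no gene in the table passed an adjusted p of 0.05. Psmb5 (chr14:54850776-54855481, minus strand), which carries the chymotrypsin-like site, was at 7.01 and 12.4 CPM with lactate and 1.22 and 0.757 CPM in G&N-L. Psmb6 (chr11:70416183-70418684, plus strand), which carries the caspase-like site, was at 57.7 and 73.4 CPM against 27.8 and 37.5 CPM. Psmb7 (chr2:38478044-38534099, minus strand), which carries the trypsin-like site, was at 16.8 and 34 CPM against 9.83 and 8.51 CPM. The groups did not overlap for any of the 3 genes. The log2 fold changes of G&N-L against G&N were -3.23 (SE 0.734) for Psmb5, -0.96 (SE 0.289) for Psmb6 and -1.41 (SE 0.473) for Psmb7, with adjusted p of 0.316, 0.333 and 0.341 by edgeR's quasi-likelihood test with Benjamini-Hochberg adjustment. That of Psmb7 was -0.79 without the second G&N library.

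Of the 49 genes, 11 were lower and 2 higher in G&N-L at an unadjusted p under 0.05 with a log2 change beyond 0.5, against 7.63% and 4.23% of the 19481 genes tested. The adjusted test called 0 of 49 in either direction, as it did 0% of all genes, and DESeq2 called 6 lower (Psma6, Psmb4, Psmb5, Psmd11, Psmd12 and Psme2), against 3.19% of all genes. On the scale of the 4 libraries compared, which is the scale of every such count below, the groups did not overlap for 18 of the 49 genes with G&N-L the lower and for 4 with it the higher, where 23.5% and 20.2% of all genes did so. The median log2 change of the 49 was -0.39, beside -0.02 for all genes. Psma6 (chr12:55431007-55467094, plus strand), an alpha-ring gene, had the smallest p. It was at 85 and 153 CPM in G&N and 34.3 and 39.2 CPM in G&N-L, a log2 change of -1.64 (SE 0.327, edgeR adjusted p = 0.313). Psmb4 of the beta ring was at 24 and 35.2 CPM against 9.16 and 4.23 CPM.

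The log2 change was below 0 for 33 of the 49 genes, where it was for 51% of all genes, and among 19S genes for 10 of the 11 non-ATPase subunits and 4 of the 6 ATPases. Psmd11, a scaffold subunit of the lid, was at 121 and 156 CPM in G&N and 67.8 and 55.3 CPM in G&N-L (log2 -1.11, SE 0.248), and Psmd12, also of the lid, was at 90.8 and 171 CPM against 55.3 and 29.1 CPM. Psmd14 (chr2:61542026-61631607, plus strand), the deubiquitinase that cuts ubiquitin chains off the substrate, was at 43.3 and 136 CPM in G&N and 34.6 and 26.6 CPM in G&N-L. Its log2 change of -1.48 (SE 0.543, edgeR adjusted p = 0.369) was -0.41 without the second G&N library. Psmd4, a ubiquitin receptor, was at 79.6 and 134 against 97.7 and 117 CPM, so its groups overlapped. The ATPase gene Psmc5 was at 44.1 and 52.6 CPM against 22.9 and 24.9 CPM (log2 -0.97, SE 0.279).

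Psme2, a subunit of the PA28 activator that interferon induces, was at 9.12 and 14.1 CPM in G&N and 2.37 and 1.96 CPM in G&N-L, a log2 change of -2.36 (SE 0.592). Its partner Psme1 was at 8.08 and 3.05 against 12.9 and 3.42 CPM and overlapped. Psme4, which encodes the nuclear activator PA200, was at 623 and 559 against 532 and 559 CPM, and Psme3, the subunit of the nuclear PA28 complex, was at 115 and 71.8 against 71.4 and 69.1 CPM. Psmb9, the immunoproteasome counterpart of Psmb6, was higher without lactate, at 6.61 and 7 CPM against 2.14 and 2.11 CPM (log2 1.72, SE 0.667, edgeR adjusted p = 0.396). Psma8, a germline counterpart of Psma7, had 39 and 14 counts in G&N-L and 0 in both G&N libraries, at least 9.14-fold higher against a limit of 3 counts in each library.

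How many genes met the criterion depended on the second late G&N library. Its core sum of 1656 CPM exceeded the 985.5 CPM of the first. Without it fewer genes were lower by the unadjusted criterion, and the median was -0.12, beside 0.15 for all genes. Without the first the median was -0.56, beside 0.14 for all genes. Fewer genes were higher by the criterion with any library left out. The maternal list was 16780 and 19300 CPM in G&N-L and 13180 and 15150 CPM in G&N, and the late-activated list was 2322 and 2692 against 2424 and 2945 CPM. Members of the late-activated list moved both ways, with 2 of 11 lower and 1 higher by the unadjusted criterion. Dppa4 was at 78.1 and 72.2 against 215 and 338 CPM, and Dppa5a at 140 and 137 against 389 and 479 CPM. Tcstv3 was at 327 and 367 against 246 and 231 CPM. The log2 change was below 0 for 4 of the 11. The part of either list in the differences of the proteasome genes was not tested.

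At the early 2-cell stage, the median log2 change of the proteasome genes without lactate was close to 0. Of 44 genes tested, 3 were lower and 0 higher by the unadjusted criterion, against 2.69% and 1.82% of 17343 genes. No gene passed by the adjusted edgeR test (0% of all genes), and DESeq2 called 0 of the 44, against 0.219% of all genes. The 3 were Psmd8, with log2 -1.03 (SE 0.265), Psmd11 and Psmd9, and the number changed with the library left out. Libraries did not overlap for 5 lower and 9 higher genes, where 17.1% and 16% of all genes were so. The median was -0.02, against -0.01 for all genes, and it was 0.23 without the first early G&N library. Psmb6 was at 169 and 168 CPM in early G&N-L and 202 and 197 CPM in early G&N, with a log2 change of -0.12 on the scale of the 4 libraries, where the groups overlapped. Psmb5 was at 3.58 and 0.589 CPM against 3.04 and 0.797 CPM, and Psmb7 at 6.45 and 12.1 CPM against 14.5 and 6.9 CPM. For Psma1 and Psma2, next in order of p, the log2 changes were 0.59 and 0.36.

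The difference between the stages in their change without lactate was itself tested, as the interaction in a fit of the 8 libraries. It was below 0 for 8 genes and above 0 for 2 at an unadjusted p under 0.05 and a log2 value beyond 0.5, against 3.98% and 3.57% of 22287 genes, and none passed the adjusted edgeR test (0% of all genes). DESeq2 called 1, Psma6, against 0.713% of all genes below 0. Psma6 had the smallest p, with an interaction of -1.71 (SE 0.441, edgeR adjusted p = 0.595), followed by Psme2, Psmd9, Psmd12 and Psmb1. Of the 44 genes tested at both stages, 4 had groups apart in opposite directions early and late (Psma3, Psmb1, Psmd9 and Psme2), where 6.75% of all genes did. The number below 0 by the criterion changed with the library left out and was smallest without the second late G&N library.

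**Figure D3:**
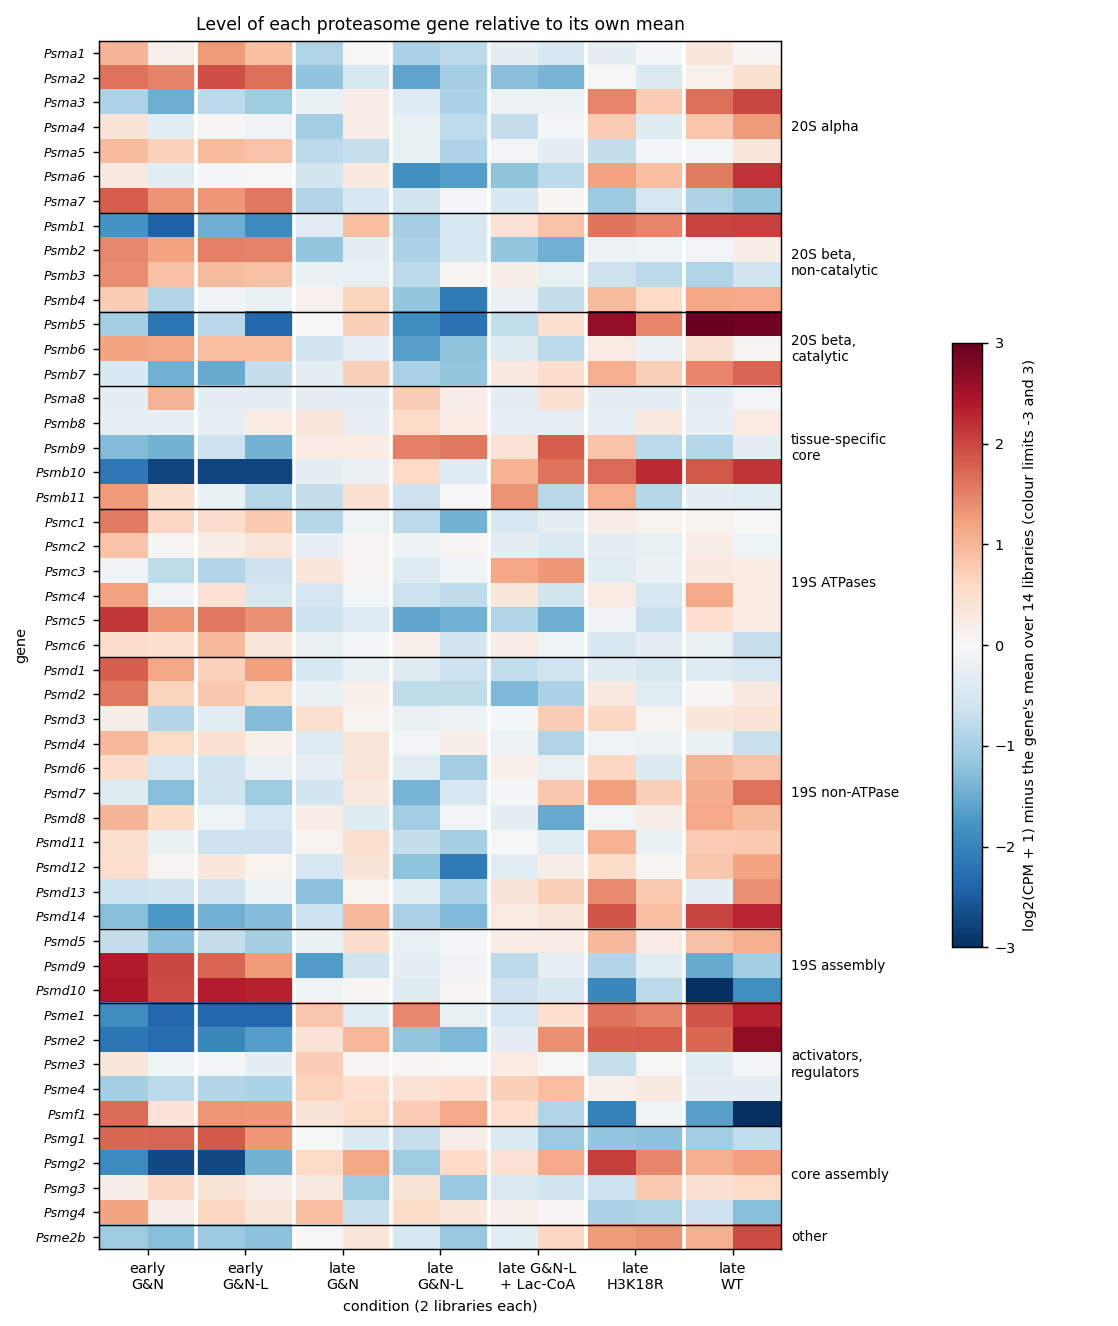
Heat map of the 49 proteasome genes, in rows by role, in the 14 libraries; colour is log2(CPM + 1) minus the gene's own mean over all libraries, with limits at -3 and 3. Psma2 and Psmb2 are highest in the 4 early libraries, whereas Psma6, Psmb1, Psmb5 and Psmd14 are highest in WT libraries.

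Lac-CoA was given to embryos without lactate to ask whether a lactylation substrate brings back the expression seen with lactate. Compared with late G&N-L, the catalytic genes and several 19S genes were higher in embryos with Lac-CoA, again with no gene in the table past the adjusted threshold. This comparison uses the same G&N-L libraries as the one before, so the pair are not independent. The Lac-CoA embryos were injected as zygotes, and no injection is named for G&N-L or G&N. In comparisons with either group, injection and Lac-CoA therefore cannot be told apart. Psmb5 was at 3.87 and 10.3 CPM with Lac-CoA, Psmb6 at 68.6 and 50.4 CPM and Psmb7 at 25.2 and 29.9 CPM, each above both G&N-L libraries. The log2 changes against G&N-L were 2.77 (SE 0.915), 0.82 (SE 0.309) and 1.53 (SE 0.371), with edgeR adjusted p of 0.310, 0.350 and 0.294, and that of Psmb5 was 1.93 without the second Lac-CoA library. Psmd14 was at 81 and 88.1 CPM against 34.6 and 26.6 CPM (log2 1.42, SE 0.258, edgeR adjusted p = 0.294). Psmc3, an ATPase, was at 49.4 and 54.6 CPM against 16.3 and 19.7 CPM, and Psmb1, a non-catalytic beta subunit, at 188 and 251 against 69 and 99.4 CPM.

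By the unadjusted criterion 11 of the 49 genes were higher and 2 lower with Lac-CoA, against 6.89% and 6.29% of 19610 genes. The adjusted edgeR test called 0 (0% of all genes) and DESeq2 called 5 higher (Psmb1, Psmb7, Psmc3, Psmd12 and Psmd14), against 3.5% of all genes. Both Lac-CoA libraries lay above both G&N-L libraries for 23 genes and below for 9, where 23.4% and 23.5% of all genes did so. The median was 0.32, beside -0.01 for all genes. The 2 lower genes were Psmb2, at 161 and 133 against 188 and 266 CPM, and Psmb8, the immunoproteasome counterpart of Psmb5, at 0 in both Lac-CoA libraries against 29 and 14 counts, at least 8.1-fold lower. Fewer genes were higher by the criterion with any library left out, and the median was 0.31 to 0.46 in those fits. The maternal list was 14170 and 9934 CPM with Lac-CoA against 16780 and 19300 CPM, and the late-activated list 3447 and 3619 against 2322 and 2692 CPM. Their part in these differences was not tested.

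**Figure D4:**
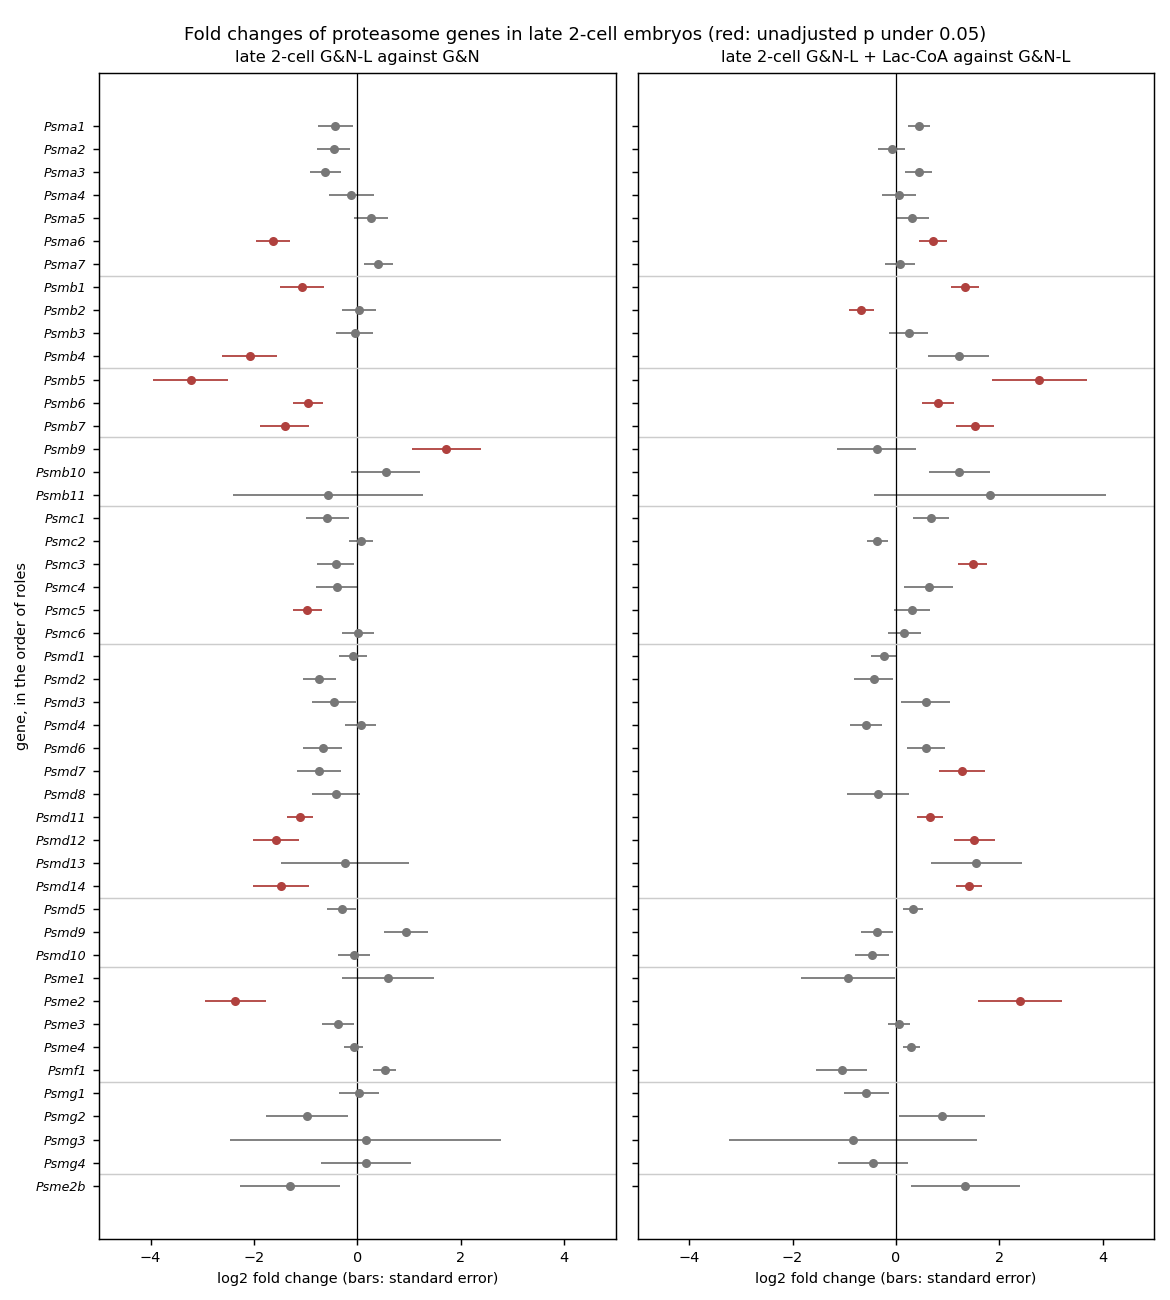
log2 fold change with its standard error for each proteasome gene in late G&N-L against G&N and in G&N-L + Lac-CoA against G&N-L; red marks an unadjusted p under 0.05. Psma8 and Psmb8, with a group at 0, are left out. Psmb5, Psmb6 and Psmb7 are below 0 in the first, at -3.23, -0.96 and -1.41, and above 0 in the second, at 2.77, 0.82 and 1.53; both comparisons use the same G&N-L libraries.

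Set directly against late G&N, the shares of proteasome genes that differed with Lac-CoA were near those of all genes. With 2 libraries a group, few differences do not show that levels were equal. By the unadjusted criterion 3 of 47 genes were higher (Psmc3, Psmb10 and Psma5) and 1 lower (Psmd2, a base subunit of the 19S particle), against 4.41% and 4.1% of 19613 genes. No gene passed the adjusted edgeR test (0%), and DESeq2 called 0 of the 47, against 2.43% of all genes. Libraries did not overlap for 9 higher and 8 lower genes, against 20.1% and 19.2%, and the median was 0.03 beside 0.01 for all genes. Psmc3 was at 49.4 and 54.6 CPM with Lac-CoA against 27 and 22.7 CPM in G&N (log2 1.15, SE 0.306, edgeR adjusted p = 0.500), and Psmb10, the immunoproteasome counterpart of Psmb7, was at 12.7 and 19.7 against 4.49 and 4.98 CPM. Psmd2 was at 12.3 and 16.5 against 28.3 and 36.7 CPM.

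**Figure D5:**
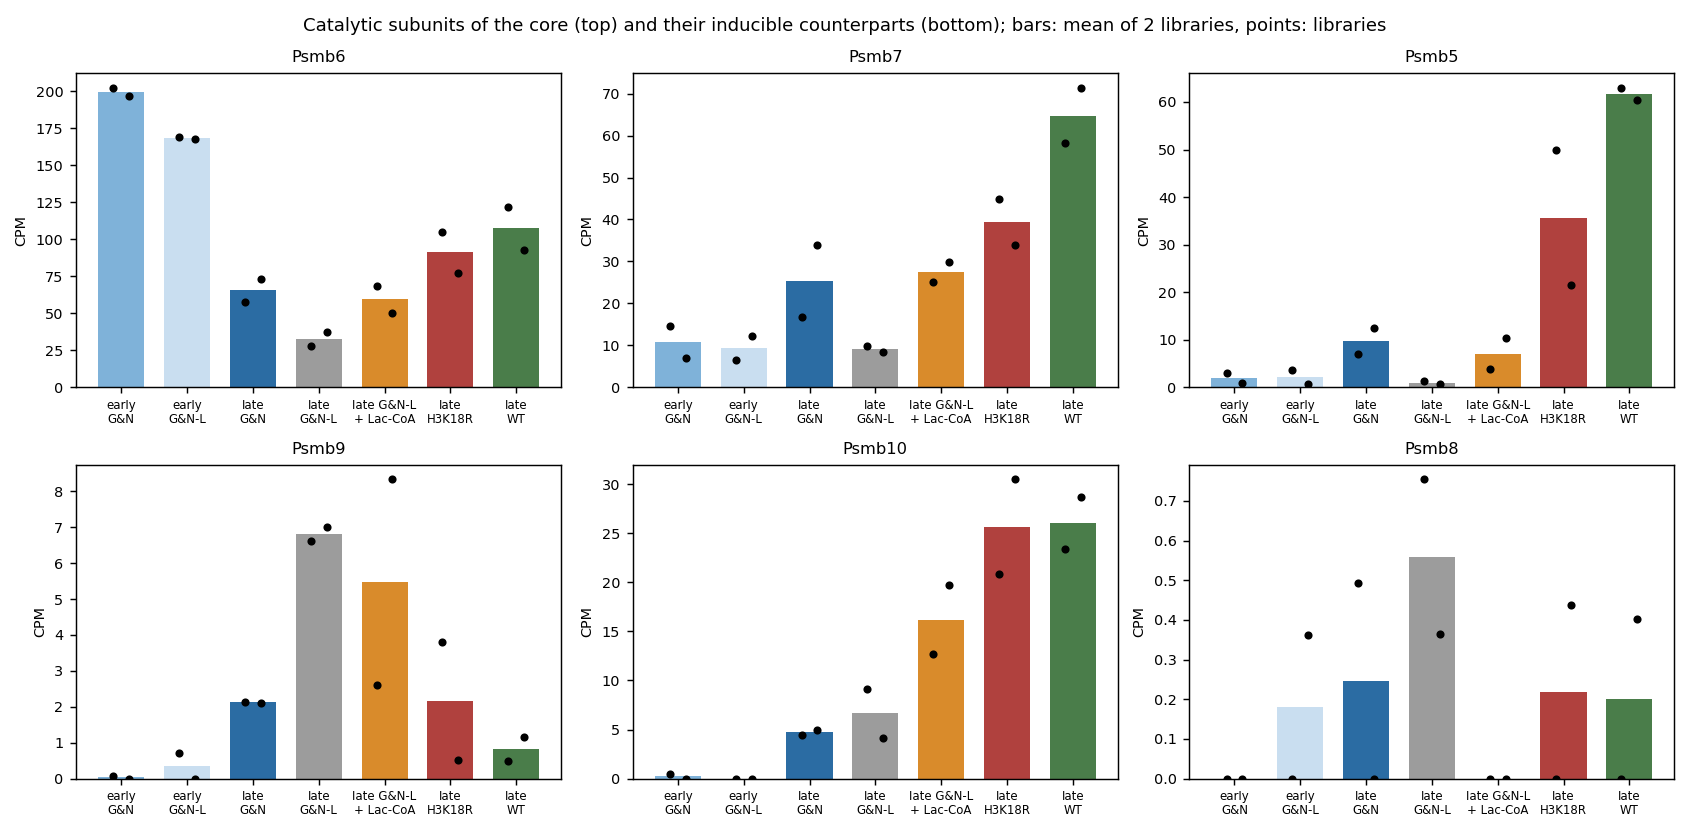
CPM of the catalytic genes Psmb6, Psmb7 and Psmb5 (top) and of their immunoproteasome counterparts Psmb9, Psmb10 and Psmb8 (bottom) by condition; bars are means of 2 libraries and points the libraries. Psmb5 is at 0.757 to 1.22 CPM in late G&N-L and 60.4 to 62.9 CPM in WT, and Psmb8 is at 0.754 CPM or less throughout.

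H3K18R against WT asks what added histone H3 with arginine in place of lysine 18 does to late 2-cell expression. The study names acetylation beside lactylation as a mark of this lysine. By immunofluorescence it reports no marked acetylation there at the 2-cell stage. Most core genes had lower values in H3K18R, and none passed the adjusted test. Psma6 was at 289 and 233 CPM in H3K18R and 367 and 559 CPM in WT (log2 -0.82, SE 0.320, edgeR adjusted p = 0.763), and Psmd8, a lid subunit, at 30.7 and 36.5 CPM against 72.7 and 63.7 CPM (log2 -1.02, SE 0.314, edgeR adjusted p = 0.734). These were the only genes of 47 past the unadjusted criterion, 2 lower and 0 higher, where 2.67% and 3.77% of 17704 genes passed it. Of all genes, 0% were called lower and 0.00565% higher. DESeq2 called 0 of the 47, against 0.678% of all genes. Both H3K18R libraries lay below both WT libraries for 20 genes, 6 of the 7 alpha-ring genes among them, and above for 4, against 19.3% and 19.6% of all genes. The median was -0.29, beside 0.03 for all genes.

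The catalytic genes lay in the same direction with a wide spread. Psmb5 was at 49.8 and 21.5 CPM in H3K18R against 62.9 and 60.4 CPM in WT, and Psmb7 at 44.8 and 33.9 against 58.2 and 71.3 CPM, neither overlapping. Psmb6, at 105 and 77.4 against 122 and 93 CPM, overlapped. Psmd14 was at 254 and 128 against 281 and 336 CPM, whereas Psmf1, which encodes the regulator PI31, was at 19.5 and 75.5 against 26.3 and 7.13 CPM. The second H3K18R library differed from the first in the maternal list, at 8264 against 4010 CPM, with 3653 and 3726 CPM in WT. More genes met the lower criterion without the first H3K18R library, and fewer without either WT library. The median of all genes moved in these fits as well. It was 0.03 with all 4 libraries, -0.06 without the first H3K18R library, and 0.17 and 0.16 without the first and the second WT library. The part of maternal RNA in these differences was not tested.

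From the early to the late stage, core genes split by gene. In G&N, 11 of 47 genes fell and 3 rose at an adjusted p under 0.05, against 5.47% and 8.18% of 19443 genes, and in G&N-L 15 of 49 fell and 3 rose, against 5.87% and 5.97% of 18604. By the unadjusted criterion 16 were lower and 9 higher in G&N (14.6% and 19.8% of all genes) and 18 lower and 6 higher in G&N-L (13.2% and 19%). DESeq2 called 13 lower and 11 higher in G&N (11.9% and 18.6%) and 17 lower and 6 higher in G&N-L (11.2% and 16.7%). Psma2 was at 995 and 902 CPM in early G&N and 142 and 235 CPM in late G&N (log2 -2.41, edgeR adjusted p = 0.014), and at 1240 and 1010 CPM in early G&N-L and 106 and 159 CPM in late G&N-L (log2 -3.14, edgeR adjusted p = 0.006). Psma7 fell from 500 and 361 CPM to 75.7 and 102 CPM in G&N, and Psmb2 from 998 and 835 CPM to 163 and 296 CPM. Psmb6 fell by 1.68 on the log2 scale in G&N (SE 0.268) and by 2.43 in G&N-L (SE 0.225). Psmc5, an ATPase, fell in both, from 210 and 179 CPM to 22.9 and 24.9 CPM in G&N-L. The 19S assembly chaperones Psmd9 and Psmd10 fell in both, Psmd10 from 179 and 126 CPM to 29.2 and 32.9 CPM in G&N, and so did Psmg1, a chaperone of core assembly, with log2 -2.01 (SE 0.291) in G&N and -1.85 (SE 0.357) in G&N-L.

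The share of proteasome genes called higher from early to late was near that of all genes. It was 6.38% against 8.18% in G&N and 6.12% against 5.97% in G&N-L. Psme4 (chr11:30721725-30830376, plus strand) rose from 196 and 227 CPM to 623 and 559 CPM in G&N (log2 1.40, SE 0.268, edgeR adjusted p = 0.0313) and from 214 and 204 CPM to 532 and 559 CPM in G&N-L (log2 1.32, SE 0.143, edgeR adjusted p = 0.0102). Psme2 rose from 0.667 and 0.546 CPM to 9.12 and 14.1 CPM in G&N (log2 4.18, SE 0.725), where it stood in G&N-L at 0.983 and 1.41 CPM early and 2.37 and 1.96 CPM late. Psmb1 rose from 39.5 and 25 CPM to 110 and 260 CPM in G&N (log2 2.46, SE 0.482), or by log2 1.71 without the second late library. In G&N-L, Psmb10 (chr8:106662362-106665077, minus strand) had 0 counts in both early libraries and 352 and 159 late, at least 62.9-fold higher, and Psme1 had 0 early and 495 and 131 counts late, at least 77-fold higher.

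These calls depended on the libraries and the scaling. With either late library left out, there were fewer calls in G&N and in G&N-L, among the proteasome genes and over all genes alike. Those fits hold a single library in a group, so their counts are not given. Scaled to library totals, the calls were 10 lower and 4 higher in G&N and 10 lower and 5 higher in G&N-L. Over all genes, 2623 of 19443 and 2504 of 18604 were called in either direction on that scale. The median of all genes moved from 0.08 to 0.46 and from 0.15 to 0.51. The medians of the proteasome genes were -0.42 in G&N and -0.39 in G&N-L, and -0.0834 and -0.0327 on library totals, so they stayed below those of all genes on both scales. Late libraries did not overlap early ones for 21 lower and 14 higher genes in G&N (30.7% and 34.8% of all genes) and for 24 and 12 in G&N-L (27.6% and 35.3%). Maternal transcripts fell over the same interval, with 6 of 12 called lower in G&N and 3 of 12 in G&N-L, and their part in these changes was not tested. Over the whole series, all 4 early libraries lay above all 10 late ones for 14 of the 49 genes and below them for 7, where 8.5% and 11.8% of the 25041 genes past the filter did so.

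WT late embryos were also set against late G&N embryos, which differed from them in the injected H3 mRNA and in Gne140 and NMN, which the labels give for G&N and not for WT, and these cannot be told apart. The log2 change was above 0 for 33 of 48 genes, where it was for 8680 of all 18986 genes tested. Among the 33 were all 3 catalytic genes, 6 of 7 alpha-ring genes and 9 of 11 non-ATPase 19S subunits. The median was -0.69 for the activators and regulators, -0.25 for the 19S chaperones and -0.27 for the core chaperones. Psmb5 was at 62.9 and 60.4 CPM against 7.01 and 12.4 CPM in G&N (log2 2.63, SE 0.376, edgeR adjusted p = 0.0413), Psma3, an alpha-ring gene, at 367 and 468 against 102 and 135 CPM (log2 1.78, SE 0.240), and Psmb10 at 23.4 and 28.7 against 4.49 and 4.98 CPM (log2 2.41, SE 0.409). These were the 3 of 48 genes called, all higher, against 1.94% of 18986 genes called higher and 2.68% lower. By the unadjusted criterion 19 were higher and 3 lower, against 12.4% and 15.6%, and DESeq2 called 17 higher and 3 lower, against 10.6% and 11.2%. Both WT libraries lay above both G&N libraries for 27 genes and below for 9, where 27.3% and 33.3% of all genes did so. The median was 0.69, while that of all genes was -0.16.

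The 3 lower genes by the unadjusted criterion were Psme4, at 320 and 326 against 623 and 559 CPM (log2 -0.92, edgeR adjusted p = 0.0603), Psmf1, at 26.3 and 7.13 against 108 and 124 CPM, and Psmd10, at 3.04 and 8.11 against 29.2 and 32.9 CPM. In early libraries Psmf1 was at 111 to 266 CPM and Psmd10 at 126 to 179 CPM. Maternal transcripts moved with this comparison, at 3653 and 3726 CPM in WT and 13180 and 15150 CPM in G&N, and their part in it was not tested. The 3 calls were lost without the first G&N library or without either WT library, as were the calls over all genes.

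Of the tissue-specific genes, 4 stayed below 10 CPM in every library and Psmb10 did not. Psmb8 was at 0 in 8 of the 14 libraries and at 0.754 CPM or less in the rest, and Psma8 and Psmb11, the thymus counterpart of Psmb5, did not exceed 1.41 and 3.64 CPM. Psmb9 reached 8.33 CPM, in a Lac-CoA library, and was at 0.478 and 1.17 CPM in WT, whereas Psmb10 was at 0.51 CPM or less in early libraries and reached 30.5 CPM in H3K18R. Among the core assembly chaperones Psmg1 was the highest, at 140 to 204 CPM in early and 23.5 to 64.5 CPM in late libraries. Psmg2 was at 1.45 CPM or less in early and 2.13 to 26.5 CPM in late libraries, Psmg3 at 2.76 CPM or less throughout, and Psmg4 at 0.864 to 9.32 CPM. No core chaperone passed an adjusted p of 0.05 in a comparison within the late stage, or within the early stage, by edgeR.

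A list of other genes of the pathway held 26 of its 27 symbols: ubiquitin genes, activating enzymes, shuttle factors, the small 19S subunit Sem1, the ubiquitin receptor Adrm1, the deubiquitinases Uchl5 and Usp14, the maturation factor Pomp, and the regulators Nfe2l1 and Nfe2l2. In late G&N-L against G&N, 0 of 26 were called, with a median of -0.17, and the genes lower by the unadjusted criterion included Uba6 and Rps27a. With Lac-CoA against G&N-L, 0 were called, Adrm1 (log2 0.97, SE 0.357) and Rps27a met the higher and Rad23b the lower criterion, and the median was 0.12. Lac-CoA against G&N and H3K18R against WT called 0 of 26 each. Pomp met the lower criterion in both, at log2 -0.76 and -0.93, beside Akirin2 in the first. Early G&N-L against G&N called 0 of 25, with Rad23b past the lower criterion. From early to late, Pomp fell in G&N (log2 -1.49, edgeR adjusted p = 0.026) and in G&N-L (log2 -2.17, edgeR adjusted p = 0.00611), beside Akirin2 in G&N and Usp14 in G&N-L, and Rps27a rose in both. In WT against G&N, Pomp (log2 1.25, edgeR adjusted p = 0.0463) and Rps27a were called higher and Ubb lower. Nfe2l1 and Nfe2l2 passed in no comparison, with log2 changes of 0.04 and 0.04 in late G&N-L against G&N, which lay on either side of 0 with a library left out. The genes named here beyond Adrm1, Sem1, Pomp, Uchl5, Usp14, Nfe2l1 and Nfe2l2 were picked after their values were seen.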

How the data were processed

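Raw counts of reads per gene were deposited by the authors. The submitters' notes and the study's methods name FastQC for quality checks, Trim Galore for trimming, HISAT2 with the mm39 genome for alignment and featureCounts for counting; versions, annotation and strand setting are not given in the sources used here. cDNA was amplified before library preparation and carries no molecular identifiers, so limits cover counting error only. The protocol names 3 replicates per group, and the table holds 2.

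Each of 8 comparisons was fitted on its own 4 libraries with edgeR 4.0.16 (R 4.3.3), using filterByExpr, TMM scaling and a two-sided quasi-likelihood test, and p-values were adjusted by Benjamini-Hochberg over all genes tested; the interaction used 8 libraries. Both tools were tested on simulated counts, where DESeq2 called many more unchanged genes than edgeR. These counts were drawn from edgeR's own dispersion trend, with no further spread between genes, so they cannot rank the tools on the real counts. DESeq2 1.42.0 and other scalings, filters, pooled fits, a replicate block and leaving out each library were alternatives. Fitted folds used a prior count of 0.125. Positions and coding lengths came from GENCODE vM39 on GRCm39. Named genes were those with defined roles (catalytic, tissue-specific, activators, chaperones, Psmd4, Psmd14), those passing or with the 5 smallest p-values per comparison, and the extremes of each role. The genes and lists were chosen with earlier results of these data known. Same-numbered replicates did not deviate together (correlations -0.0402 to 0.00709). The values of 1 gene of the pathway list are not reported here.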

Additional observations from a re-analysis of the deposited data

Results flagged for a closer look

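Without lactate, 4 of the 44 proteasome genes tested at both stages lay on opposite sides at the early and late 2-cell stages in every library, on the scale of each comparison's own libraries; on the scale of all 14 libraries, the early libraries of Psma3 and Psmb1 overlapped. Of all genes tested at both stages, 6.75% lay so. The log2 changes of G&N-L against G&N, early and late, were 0.38 and -0.62 for Psma3, 0.53 and -1.07 for Psmb1, -0.56 and 0.94 for Psmd9, and 1.11 and -2.36 for Psme2. The difference between stages was tested as the interaction term, and none of the 4 passed, with edgeR adjusted p of 0.650 for Psma3 and Psmb1 and 0.639 for Psmd9 and Psme2.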

How the results depend on the processing

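With 2 libraries a group, the median and the number of genes called depended on the setting. By DESeq2 the calls were 6 in late G&N-L against G&N, 5 in Lac-CoA against G&N-L, 24 in G&N and 23 in G&N-L from early to late, 20 in WT against G&N and 1 in the interaction. With no filter they were 3 in late G&N-L against G&N and 23 in G&N from early to late. They were 17 in WT against G&N and 3 in the interaction. Over all genes, no filter called 317 of 28941, 5060 of 29321, 3668 of 28129 and 361 of 32454, in that order. WT against G&N gave 17 with at least 10 counts in every library, against 2971 of 13033 genes. With all 14 libraries in one fit it gave 7, against 1281 of 25041 genes. Leaving out a library gave 0 to 15 calls in G&N and 6 to 13 in G&N-L from early to late, and 0 to 4 in WT against G&N.

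The median in late G&N-L against G&N was -0.34 by DESeq2 and with its size factors, -0.36 on library totals and with no filter, -0.45 with all libraries, and -0.56 to -0.12 with a library left out. In Lac-CoA against G&N-L it was 0.42 on library totals, 0.33 with at least 10 counts, 0.37 with all libraries and 0.31 to 0.46 with a library left out. In Lac-CoA against G&N it was 0.089 on library totals, -0.0842 with all libraries, and -0.12 and -0.22 without the second Lac-CoA or first G&N library, in a range of -0.22 to 0.24. In the early comparison it ranged from -0.21 to 0.23, and in H3K18R against WT from -0.40 to -0.21. From early to late it was -0.0834 in G&N and -0.0327 in G&N-L on library totals, -0.69 to 0.01 in G&N, where it turned to 0.0077 without the first early library, and -0.59 to -0.40 in G&N-L. In WT against G&N it was 0.75 by DESeq2 and its size factors and 0.45 to 0.96 with a library left out. The cause of these shifts was not tested. Of 136 changes of single genes recomputed, those with an unadjusted p under 0.05, the 5 smallest p of each comparison and others given a log2 change, 2 changed sign in a setting. These were Nfe2l1 and Nfe2l2 in late G&N-L against G&N, at -0.0034 and -0.0083 with all libraries in one fit, and at -0.13 to 0.33 and -0.26 to 0.28 with a library left out.

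With the replicate number as a block, the calls were 12 in G&N and 13 in G&N-L from early to late and 4 in WT against G&N. Over all genes they were 1839 of 19443, 1391 of 18604 and 804 of 18986. The median of Lac-CoA against G&N-L was 0.33 with the block. Replicate numbers do not pair the libraries. Depth limits Psma8, Psmb8, Psmb11 and Psmg3, which stand at or near a few counts in many libraries.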

Other observations

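Over the means of the 7 conditions, 20 of the 49 proteasome genes (40.8%) were highest in late WT, where 21% of the 25041 genes past the filter were, and 14 (28.6%) in early G&N, where 19.1% of all genes were. Late G&N-L held the lowest mean of 14 proteasome genes (28.6%) and of 8.03% of all genes. Of the 14 constitutive core genes, 7 were highest in WT and 7 in an early group, and 7 were lowest in late G&N-L.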
